A study of Homo sapiens with 25 samples.

Results

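miR-143 and miR-145 are microRNAs (miRNAs), short RNAs that guide Argonaute proteins to partly complementary messenger RNAs and lower the output of those messages. Both are cut from hairpins made by neighbouring genes on human chromosome 5, and they are known as the miRNAs of smooth muscle, where serum response factor with its partner myocardin drives their shared transcript and where they help to keep the contractile state. They are abundant in fibroblasts and other mesenchymal cells as well, miR-145 has been described as induced by p53, and both are often reported as low in epithelial tumours.

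The members, hsa-mir-143 and hsa-mir-145 by precursor name, were the unstarred rows of miR-143 and miR-145, which are 2 of 1410 rows (1033 of them human) in the table of mature miRNAs, with their 2 rows among 934 (557 human) in the table of precursors. Small RNA was sequenced from A2780, a human cell line established from an ovarian carcinoma, in 3 groups of 3 libraries. All cells carried a lentivirus, which was empty (pLVX), made for overexpression of pri-miR-450a, or made for overexpression of pri-miR-450b. The series compares these vectors to ask what miR-450a does in ovarian cancer cells, and its 12 samples of mRNA and 4 of PAR-CLIP were not used here.

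The groups have limits as models. They rest on a single cell line, and the labels do not say whether a transduced line was 1 clone or a pool, or whether the 3 samples of a group came from separate transductions. The p-values therefore stand for the spread among those samples, and part of it may be technical. In bulk RNA, fewer cells holding a miRNA and less of it per cell cannot be told apart.

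The mature sequences are shown first because the rows are named by them, and a miRNA selects its targets mainly through the seed at bases 2 to 8, given here in capitals. Sequences and coordinates are from RefSeq on GRCh38.p14, plus strand, while the tables themselves name no build. In the older naming used by the tables, the unstarred row is the 3′ arm for miR-143 and the 5′ arm for miR-145, and a star marks the lesser arm.
miR-143 (3′ arm, chr5:149428978-149428998): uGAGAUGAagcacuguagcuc
miR-143* (5′ arm, chr5:149428944-149428965): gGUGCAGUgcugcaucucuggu
miR-145 (5′ arm, chr5:149430661-149430683): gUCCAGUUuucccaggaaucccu
miR-145* (3′ arm, chr5:149430699-149430720): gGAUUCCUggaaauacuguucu

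The 4 seeds differ from one another, so miR-143 and miR-145 share a gene locus and not a seed family. Among 2370 human mature names searched, 2 others carry the seed of miR-143, miR-4770 and miR-6088, and neither has a row in the mature table. No other name carries the seed of miR-145 or of the starred arms.

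The hairpins show how the arms lie, with the 5′ arm first and both arms in capitals. They stand 1622 bases apart, and both lie inside CARMN, a long non-coding RNA gene at chr5:149406845-149432836 that is known as their host transcript.
MIR143 (chr5:149428918-149429023): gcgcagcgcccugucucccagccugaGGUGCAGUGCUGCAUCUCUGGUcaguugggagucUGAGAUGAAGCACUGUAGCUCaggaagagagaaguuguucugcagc
MIR145 (chr5:149430646-149430733): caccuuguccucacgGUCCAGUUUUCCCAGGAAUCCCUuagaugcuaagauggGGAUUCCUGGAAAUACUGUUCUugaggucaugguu

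The hairpins begin 22073 and 23801 bases after the annotated start of CARMN. The 300 bases around that start (250 before, 50 after) are shown because both members share this annotated host gene.
CARMN start region (chr5:149406595-149406894): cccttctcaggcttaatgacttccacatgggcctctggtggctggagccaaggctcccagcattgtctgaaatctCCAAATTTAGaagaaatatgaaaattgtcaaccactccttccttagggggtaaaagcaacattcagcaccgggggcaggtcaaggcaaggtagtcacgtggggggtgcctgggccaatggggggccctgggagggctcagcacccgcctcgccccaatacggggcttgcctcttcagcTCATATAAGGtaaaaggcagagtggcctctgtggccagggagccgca

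Capitals mark 2 places, at positions 76 to 85 and 254 to 263 of the window, that match the CArG box, the binding motif of serum response factor, at all but at most 1 position. The first begins 175 bases before the annotated start and the second 3 bases after it. Such near matches were present in 19.3% of 27305 windows of the same kind, and an exact CArG box, absent from these letters on either strand, in 1.29%. The motif CACGTG, the same on both strands and overlapping neither place, occurred once, at position 170, and in 7.43% of windows. These matches describe letters and were not tested as sites.

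The libraries were compared before the members were read. Levels are given as reads per 1000000 miRNA reads (RPM), computed from each row's share of a library's miRNA reads. The tables hold no read totals, and the depth behind a low value was not worked out from the shares. The 10 most abundant rows held 43.7% to 53.2% of a library, and 670 to 890 rows were above 0. Each vector's own miRNA was high in its libraries, with miR-450a at 8967 to 20745 RPM against 317 to 446 with the empty vector and miR-450b at 547 to 1543.5 RPM against 71.6 to 131. In the miR-450a vector libraries miR-450b also lay above the empty vector range, at 207 to 293 RPM. With the miR-450b vector, miR-450a stood at 270 to 504 RPM and overlapped the empty vector range. The miR-450a vector libraries stood apart. Across 406 rows their Pearson correlation with the empty vector libraries was 0.646 to 0.737, against 0.894 to 0.961 between empty and miR-450b vector libraries and 0.960 to 0.991 within groups. They also held a miRNA of the virus SV40 (miR-S1-3p) at 47.8 to 73.4 RPM, against a mean of 0.0889 RPM with the empty vector. The part of these differences in the results was not tested.

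miR-143 was the more abundant member in every library. It stood at 2854, 2585 and 4153 RPM in empty vector replicates 1, 2 and 3. It stood at 666, 540.5 and 889 RPM with the miR-450b vector. It stood at 36.6, 30.0 and 26.4 RPM with the miR-450a vector. No library of 1 group reached into another, and their order was empty, then miR-450b, then miR-450a vector. Taking 2 groups at a time in that order, 20.2% to 22.4% of the 406 rows tested were lower with no overlap. The share of rows with this order over all 3 groups was not computed. Group means were 3197 ± 838, 698 ± 176 and 31.0 ± 5.19 RPM (SD, n = 3 each) in that order. By rank among human rows, miR-143 was 45th to 67th with the empty vector, 93rd to 116th in miR-450b vector libraries and 307th to 329th with the miR-450a vector.

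miR-145 took the same order at lower levels. It stood at 834, 277 and 329.6 RPM in empty vector replicates 1, 2 and 3, so that replicate 1 was far above the other two. It stood at 53.2, 41.8 and 30.7 RPM in miR-450b vector libraries and at 5.65, 3.79 and 5.52 RPM with the miR-450a vector. No group overlapped another, beside the same shares of all rows as for miR-143. Group means were 480.1 ± 307, 41.9 ± 11.3 and 4.98 ± 1.04 RPM (SD, n = 3 each), and the miR-450a values are too low to be read finely without the depth.

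**Figure D1:**
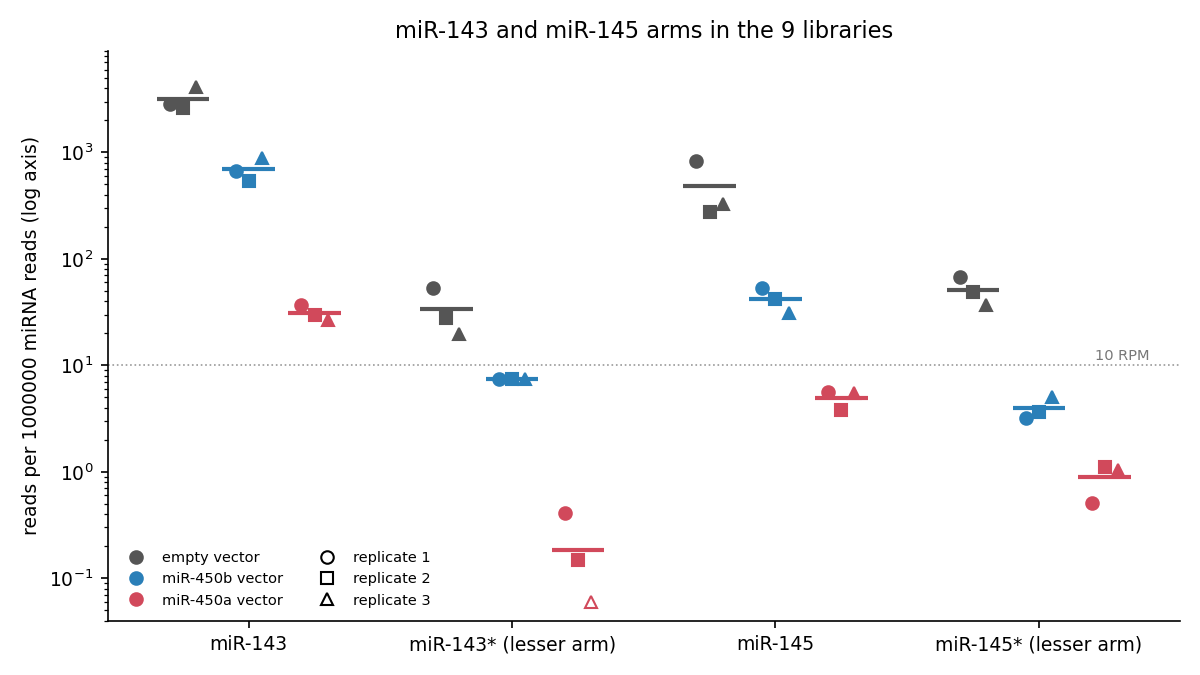
Level of each arm of the miR-143 and miR-145 hairpins in the 9 libraries, in reads per 1000000 miRNA reads (RPM) on a log axis; each mark is a library, its shape the replicate, and each bar the group mean. The open triangle at the lower edge is a value listed at 0, the dotted line marks the 10 RPM added before taking logs, and each arm steps down from the empty to the miR-450b to the miR-450a vector.

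Changes were tested with limma on log2(RPM + 10), a scale that understates the change of low rows, and p-values were adjusted by the Benjamini-Hochberg method over all 406 mature rows tested. The comparisons share libraries: both vectors are set against the same empty vector samples.

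With the miR-450a vector, miR-143 and miR-145 both fell against the empty vector. The mean of miR-143 was 103 times lower, at 0.970% of the empty vector mean, and that of miR-145 was 96.3 times lower, at 1.04%. Without empty vector replicate 1, the library high in miR-145, the latter was 60.9 times lower. On the log2 scale miR-143 changed by -6.27 ± 0.29 (SE; limma adjusted p = 1.09e-08), the 10th largest fall. miR-145 changed by -4.86 ± 0.37 (limma adjusted p = 6.36e-07), the 14th largest. In this comparison 18.5% of all rows were called lower and 20.2% had lower values with no overlap between groups, so a fall alone was common, while its size in these 2 rows was near the extreme of the table.

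With the miR-450b vector both members fell too. The mean of miR-143 was 4.58 times lower than with the empty vector, at 21.8% of it, and that of miR-145 was 11.5 times lower, at 8.73%, or 7.24 times lower without empty vector replicate 1. miR-145 changed by -3.09 ± 0.37 on the log2 scale (limma adjusted p = 0.000135), the 4th largest fall of the comparison. miR-143 changed by -2.18 ± 0.29 (limma adjusted p = 0.00026), the 15th largest. Here 10.1% of rows were called lower and 21.2% had non-overlapping lower values. Fitted without the miR-450a vector libraries, the adjusted p was 0.000832 for miR-143 and 0.000546 for miR-145, with the same log2 changes.

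Set against each other, the vectors differed for both members. miR-143 was 22.5 times lower in mean with the miR-450a than with the miR-450b vector, a log2 change of -4.09 ± 0.29 (limma adjusted p = 3.68e-07). miR-145 was 8.41 times lower, a log2 change of -1.77 ± 0.37 (limma adjusted p = 0.00186). In this comparison 18.5% of rows were called lower and 22.4% were lower with no overlap. The call for miR-145 was lost when 100 RPM rather than 10 RPM was added before taking logs (log2 change -0.43, limma adjusted p = 0.209), since both groups lie below that addition.

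Shares depend on what else a library holds. Under median-of-ratios scaling the median change of all rows moved from 0.44 to -0.02 for the miR-450a vector and from -0.16 to -0.01 for the miR-450b vector, both against the empty vector, and from 0.62 to 0.00 between the vectors. miR-143 then changed by -6.66, -1.96 and -4.70 in these comparisons and miR-145 by -5.06, -2.92 and -2.14, and each remained called.

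**Figure D2:**
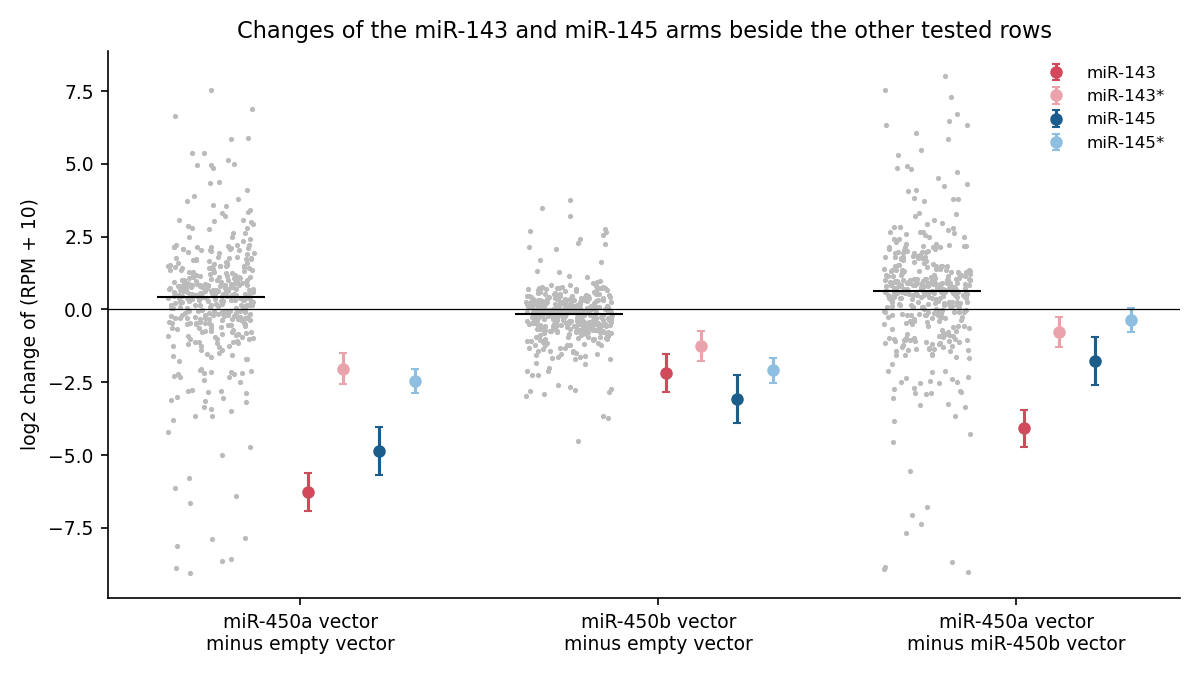
Log2 change of (RPM + 10) in the 3 comparisons for every tested mature row (grey points, black bar the median) and for the 4 arms of the hairpins (coloured points with 95% confidence intervals from limma). The starred arms passed the filter through the empty vector libraries, so their points against that group are descriptions. miR-143 lies lowest of the 4 arms against the empty vector with the miR-450a vector, and miR-145 lies lowest with the miR-450b vector.

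The starred arms, cut from the other side of each hairpin, passed the filter on mean level only through the empty vector libraries. miR-143* stood at 53.7, 28.0 and 19.8 RPM with the empty vector and at 7.44, 7.36 and 7.44 RPM with the miR-450b vector. With the miR-450a vector it stood at 0.411 and 0.149 RPM in replicates 1 and 2 and was listed at 0 in replicate 3. miR-145* stood at 67.2, 48.7 and 37.0 RPM with the empty vector, at 3.19, 3.68 and 5.08 RPM in miR-450b vector libraries and at 0.513, 1.11 and 1.05 RPM with the miR-450a vector. Each starred arm took the order of its unstarred partner with no overlap between groups, though the filter favours a separation from the empty vector. Of all rows, 20.2% and 21.2% were lower with no overlap with the miR-450a and miR-450b vectors against the empty vector. Between the vectors 22.4% were.

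Since the empty vector libraries alone carried the starred arms past the filter, their lower levels against that group are given as a description, with no test. Between the vectors miR-143* changed by -0.77 ± 0.24 (limma adjusted p = 0.0165), a call lost with 100 RPM added and with no filter on low rows. miR-145*, at -0.36 with a 95% interval of -0.77 to 0.06, was not called (limma adjusted p = 0.118).

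The balance of the arms within a hairpin does not depend on scaling. The unstarred arm made up 98.9% ± 0.689 of miR-143 reads with the empty vector, 98.9% ± 0.257 in miR-450b vector libraries and 99.5% ± 0.555 with the miR-450a vector (mean ± SD, n = 3 each). For miR-145 it made up 89.2% ± 3.80, 90.7% ± 4.40 and 84.3% ± 7.20. The groups overlapped in all 6 comparisons, and exact two-sided permutation tests gave p of 0.2 to 1 (adjusted over the 6, 0.72 to 1). With 3 libraries against 3 such a test cannot go below 0.1. A change in which arm is kept was therefore not detectable beside lower levels of both arms.

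The precursor rows added no separate measurement. Each equalled the sum of its arms in 9 of 9 libraries, to within 0.001 RPM. Their log2 changes against the empty vector were -6.28 for mir-143 and -4.94 for mir-145 with the miR-450a vector, where 19.4% of 284 precursors were called lower. With the miR-450b vector they were -2.18 and -3.14, where 11.6% were called lower, and between the vectors -4.10 and -1.80, where 17.6% were. All 6 passed the limma threshold.

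Because both hairpins lie in 1 host transcript, the level of miR-145 relative to miR-143 was also taken within each library. miR-145 stood at 29.2%, 10.7% and 7.94% of miR-143 with the empty vector, at 7.99%, 7.73% and 3.45% in miR-450b vector libraries and at 15.4%, 12.6% and 20.9% with the miR-450a vector. The miR-450a and miR-450b libraries did not overlap, while the empty vector libraries spanned a range that overlapped both. The mean log2 ratio was -2.88 ± 0.98, -4.07 ± 0.69 and -2.65 ± 0.37 (mean ± SD, n = 3) in the same order of groups.

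The 3 differences in that ratio were compared with exact two-sided permutation tests. The miR-450a vector was 1.42 above the miR-450b vector on the log2 scale, at the smallest p the design allows (exact p = 0.1, adjusted over 3 comparisons 0.3). The miR-450b vector differed from the empty vector by -1.18 (exact p = 0.2, adjusted 0.3), which was -0.63 without empty vector replicate 1, the library with the high miR-145. The miR-450a vector differed from the empty vector by 0.24 (exact p = 0.7, adjusted 0.7). With 3 libraries against 3 this test cannot pass 0.05, so it does not settle whether miR-145 and miR-143 fell by unequal amounts.

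Summed, the members made up 0.368% ± 0.0810 of miRNA reads with the empty vector, 0.0740% ± 0.0170 in miR-450b vector libraries and 0.00360% ± 0.000552 with the miR-450a vector (mean ± SD, n = 3). No groups overlapped, and all 3 exact two-sided permutation tests gave p = 0.1, the smallest possible (adjusted 0.1).

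**Figure D3:**
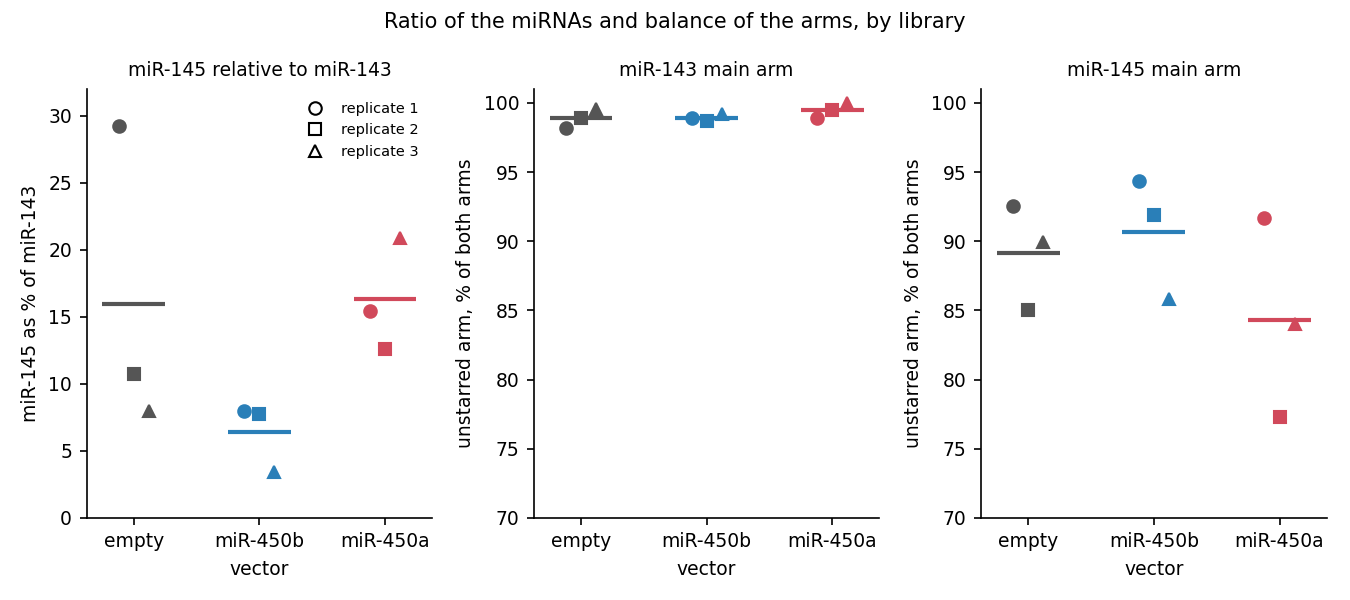
Left, miR-145 as a percentage of miR-143 in each library; middle and right, the unstarred arm as a percentage of both arms of each hairpin, on axes that begin at 70%. Marks are libraries, shapes replicates and bars group means; empty vector replicate 1 stands highest at 29.2% on the left, and the groups overlap in the middle and right panels.

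Rows whose pattern over the 9 libraries was most like that of each member were found by the root mean square difference of log2(RPM + 10), with each row centred on its own mean, among 399 human rows. They were chosen for their likeness, so their values are given without tests. For miR-143 the nearest were both arms of miR-335, at 0.36 for miR-335-3p and 0.38 for miR-335-5p, followed by miR-130a* at 0.57, miR-204 at 0.83 and miR-99a at 0.98. The median over all rows compared was 2.85.

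The levels of these rows fell in the same order of groups. miR-335-3p, from the gene MIR335 on chromosome 7, had means of 1269 ± 92.2 RPM with the empty vector, 168 ± 20.97 in miR-450b vector libraries and 2.66 ± 1.64 with the miR-450a vector. miR-204, from MIR204 on chromosome 9, had means of 1512 ± 551, 537 ± 139 and 45.2 ± 5.49 RPM. miR-99a, from MIR99A on chromosome 21, was far more abundant, at 20452 ± 8954, 6133 ± 984 and 762 ± 663 RPM.

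For miR-145 the nearest rows were miR-133a at 0.56 and miR-1 at 0.80, both known as miRNAs of skeletal and heart muscle. miR-204 followed at 0.81, miR-335-5p at 0.95 and miR-20b at 0.97, against a median of 2.27. miR-133a, read from a row that joins 2 gene copies, had means of 293 ± 122 RPM with the empty vector, 37.0 ± 13.0 in miR-450b vector libraries and 11.0 ± 4.89 with the miR-450a vector. miR-1, likewise from 2 copies, had means of 271 ± 67.8, 55.8 ± 21.9 and 11.9 ± 2.03 RPM. None of the nearest rows comes from chromosome 5.

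On this scale the members were less like each other than like these rows. Their difference was 1.10, which would place miR-145 6th on the list of miR-143 and miR-143 13th on the list of miR-145. The addition of 10 RPM compresses miR-145 more than miR-143 and enters this measure. It also exceeds the miR-450a vector means of miR-335-3p (2.66 RPM), miR-335-5p (5.07 RPM) and miR-130a* (0.0743 RPM). The order of likeness without the addition was not computed.

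**Figure D4:**
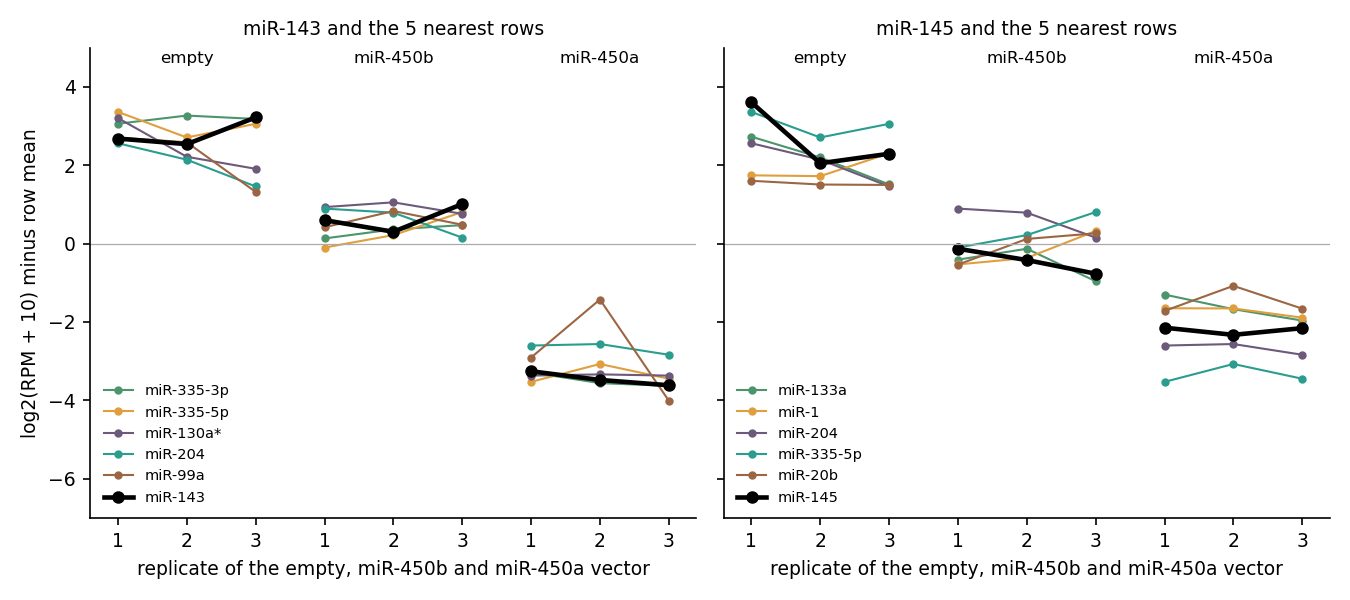
Log2(RPM + 10) minus the row's mean over the 9 libraries, for miR-143 (left) and miR-145 (right) in black and the 5 nearest rows of each in colour, with a point per library. Replicates have no order, and the lines only join points of a row; in each group of libraries the coloured rows lie around the black one, high with the empty and low with the miR-450a vector.

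Only 2 rows of the gene neighbourhood were tested, both from MIR378A, and neither was called lower with either vector. Of all rows, 18.5% (miR-450a vector) and 10.1% (miR-450b vector) were called lower, so 2 rows are too few to describe the locus. The nearest miRNA genes in the GRCh38.p14 gene table were MIR584, 367 kb before MIR143, and MIR378A, 302 kb after MIR145. miR-584 was below the filter. miR-378, made from MIR378A and known from work on mitochondrial metabolism, stood at 11868 ± 4297 RPM with the empty vector, 14637 ± 839 in miR-450b vector libraries and 21820 ± 3688 with the miR-450a vector (mean ± SD, n = 3). It rose with the miR-450a vector by a log2 change of 0.93 ± 0.30 (limma adjusted p = 0.0221), while 36.9% of rows were called higher. With the miR-450b vector its log2 change was 0.37 (limma adjusted p = 0.441). The call with the miR-450a vector was lost under median-of-ratios scaling (0.42, limma adjusted p = 0.298) and without empty vector replicate 1 or miR-450a vector replicate 1 or 3 (lowest log2 change 0.63, limma adjusted p = 0.0572). miR-378* was not called with either vector, at log2 changes of 0.08 (limma adjusted p = 0.868) and -0.33 (limma adjusted p = 0.594).

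Lists of miRNAs that share a known role with the members were read beside them. Of 21 tested rows of mesenchymal miRNAs (both arms of miR-199a, miR-199b, miR-214, miR-21, miR-22, miR-100, miR-125b, miR-152 and the miR-29 family), 17 fell and 3 rose with the miR-450a vector, with a median log2 change of -2.79 against 0.44 over all rows, of which 18.5% were called lower and 36.9% higher. With the miR-450b vector, where 10.1% of all rows were called lower and 4.43% higher, 2 fell and none rose, with a median of -0.23 against -0.16. Under median-of-ratios scaling the counts were 18 fallen and 2 risen with the miR-450a vector, and none fallen and 1 risen with the miR-450b vector, where miR-22* (-1.22 to -1.02) and miR-100 (-0.89 to -0.76) stayed negative and lost their calls and miR-199b-5p (0.93 to 1.15) gained one. Of the 3 risen rows, miR-29b-2* passed the filter through the miR-450a vector libraries (mean 52.8 RPM, 8.89 with the empty and 8.25 with the miR-450b vector). Its rise is therefore a description. No list was tested as a set.

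The most abundant of these rows did not follow the members with the miR-450b vector. miR-199a-3p, a miRNA of fibroblasts and smooth muscle, stood at 87935 ± 26886 RPM with the empty vector, 102794 ± 17131 in miR-450b vector libraries and 207 ± 53.6 with the miR-450a vector (mean ± SD, n = 3). Its log2 change was -8.65 with the miR-450a vector (limma adjusted p = 2.11e-09) and 0.26 with the miR-450b vector (limma adjusted p = 0.596). miR-199b-3p, whose sequence is the same in RefSeq, held values of the same pattern and is uncertain as a separate row. miR-214-3p changed by -9.06 (limma adjusted p = 2.11e-09) and -0.03 (limma adjusted p = 0.977). The summed level of the list was 258195 to 333976 RPM in the empty vector libraries, 265791 to 331445 in miR-450b vector libraries and 13766 to 16919 with the miR-450a vector. In the miR-450b comparison miR-22 had the list's largest log2 change, -1.64, and was not called (limma adjusted p = 0.131), though it was in a fit of the compared groups only (limma adjusted p = 0.0218).

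The muscle and smooth muscle phenotype list held the muscle miRNAs miR-1, miR-133a and miR-499 with miR-221, miR-222, miR-24 and miR-26a, which are known from smooth muscle growth and differentiation. Of its 11 tested rows, 6 fell and 3 rose with the miR-450a vector (median log2 change -0.78 against 0.44), beside 18.5% of all rows lower and 36.9% higher. With the miR-450b vector 7 fell and none rose (median -1.69 against -0.16), beside 10.1% lower and 4.43% higher. Median-of-ratios scaling gave 7 falls and 3 rises, and 6 falls and no rise. miR-221, reported to favour the growing over the contractile state of vascular smooth muscle, moved in opposite directions in the 2 comparisons. It stood at 9175 ± 2349 RPM with the empty vector, 1532 ± 427 in miR-450b vector libraries and 25674 ± 4431 with the miR-450a vector (mean ± SD, n = 3), log2 changes of -2.58 (limma adjusted p = 0.00013) and 1.502 (limma adjusted p = 0.00142).

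miR-222, its gene neighbour on the X chromosome with the same seed, changed by -2.81 in miR-450b vector libraries and 1.49 with the miR-450a vector (limma adjusted p = 0.000103 and 0.00191). miR-26a, the most abundant tested row of the list with miR-221, changed by -0.78 with the miR-450a vector (limma adjusted p = 0.0166), a call lost without empty vector replicate 2 (limma adjusted p = 0.0641), and by 0.19 with the miR-450b vector (limma adjusted p = 0.618). miR-133a and miR-1, described above for their likeness to miR-145, belong to this list. Their group of skeletal and heart muscle miRNAs summed to 570.2 to 722 RPM with the empty vector, 94.2 to 134 in miR-450b vector libraries and 36.3 to 53.3 with the miR-450a vector. miR-206 and miR-208a of that group were below 1 RPM in mean in each group and listed at 0 in all miR-450a vector libraries.

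Among the p53-linked miRNAs, 2 of 10 tested rows fell and 3 rose with the miR-450a vector (median -0.21 against 0.44 over all rows), and 2 fell with the miR-450b vector (median -0.42 against -0.16). Among them, miR-34a* passed the filter through the empty vector libraries (mean 72.3 RPM, 16.1 with the miR-450a and 0.924 with the miR-450b vector). miR-194-2* passed it through the miR-450a vector libraries (mean 21.4 RPM, 5.61 with the empty and 5.44 with the miR-450b vector). The calls of these 2 rows are therefore descriptions. With the miR-450a vector the counts are close to the shares of all rows called, 18.5% lower and 36.9% higher. With the miR-450b vector 10.1% of all rows were called lower. The 2 fallen rows were in both comparisons the arms of 1 hairpin, miR-34a and miR-34a*. Median-of-ratios scaling turned the counts with the miR-450a vector to 3 falls and 2 rises and left that with the miR-450b vector at 2 falls. miR-34a, a direct target of p53, stood at 1878 ± 88.6 RPM with the empty vector, 73.1 ± 15.7 in miR-450b vector libraries and 460.4 ± 220 with the miR-450a vector (mean ± SD, n = 3). Its log2 change was -4.52 with the miR-450b vector (limma adjusted p = 9.13e-06) and -2.11 with the miR-450a vector (limma adjusted p = 0.000255), so its order of groups differed from that of miR-145. miR-192, another p53-linked miRNA, rose by 2.14 with the miR-450a vector (limma adjusted p = 0.00022). miR-16 and miR-107, the most abundant rows of the list, were not called with either vector (log2 changes from -0.47 to 0.23, limma adjusted p from 0.394 to 0.749).

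Markers of other cell types were read as a check on what the libraries held. The 10 mature rows read as blood cell miRNAs summed to 165 to 331 RPM in the empty vector libraries. Their sum was 144.4 to 321 RPM in miR-450b vector libraries and 200.1 to 363 RPM with the miR-450a vector. In that order of groups, miR-142-3p had means of 147.3, 133.5 and 120.4 RPM. miR-142-5p had means of 81.02, 85.9 and 72.7 RPM, and miR-486 of 32.2, 19.96 and 108 RPM. The other blood cell rows were lower, among them miR-223 with means of 0.778 to 1.16 RPM. Of the 3 mature blood rows tested, 1 rose with the miR-450a vector, where 36.9% of all rows were called higher. None was called with the miR-450b vector. The 2 arms of the endothelial miR-126 summed to 1032 to 1972, 902 to 1390 and 649 to 2226 RPM and were called in no comparison. The 12 epithelial rows of the miR-200 family and miR-205 summed to 69.7 to 98.5, 88.7 to 153 and 280 to 371 RPM, highest with the miR-450a vector, where miR-143 and miR-145 were lowest. Most of each sum was miR-200c, with means of 62.0, 122 and 286 RPM in the same order. miR-205 was highest with the empty vector, with means of 5.34, 0.118 and 0.795 RPM. With the miR-450b vector miR-141 was lower than with the empty vector (5.02 against 11.2 RPM in mean), as were miR-200a, miR-200b and miR-429. Of the 2 epithelial rows tested, 1 rose with the miR-450a vector, again beside 36.9% of all rows, and none was called with the miR-450b vector as deposited, against 1 risen under median-of-ratios scaling. The part of these lists in the results was not tested.

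**Figure D5:**
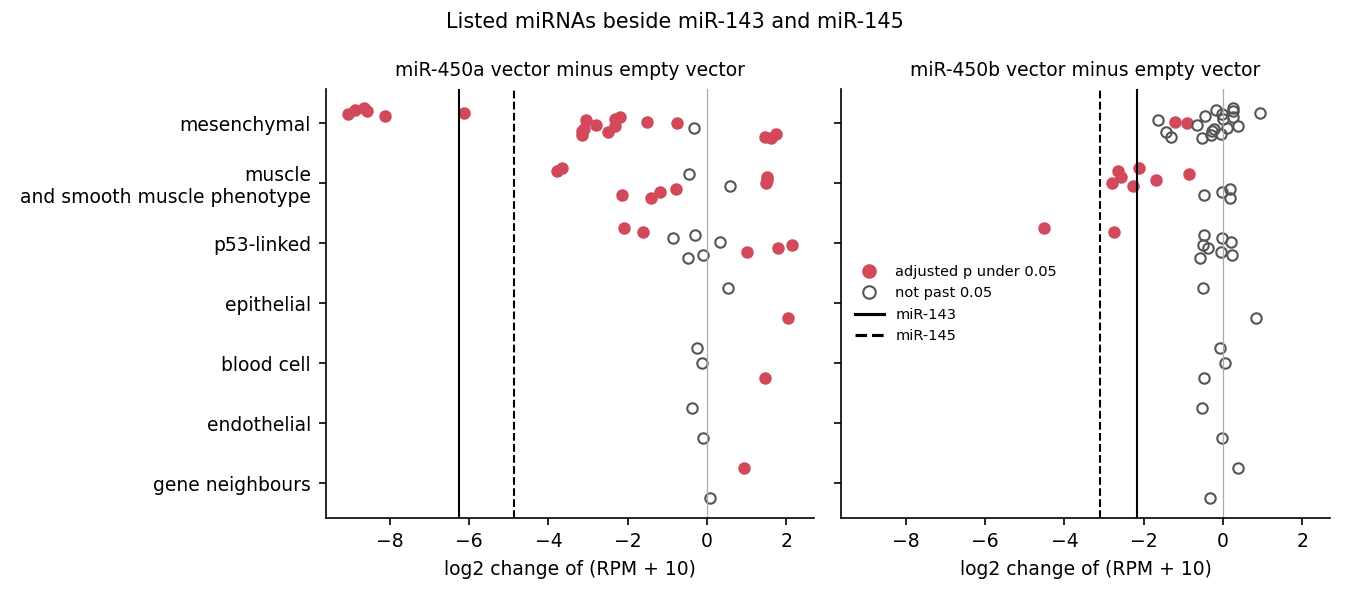
Log2 change of (RPM + 10) against the empty vector for the tested rows of each list, with the miR-450a vector (left) and the miR-450b vector (right); filled red points passed a limma adjusted p of 0.05 and open points did not. Vertical lines mark miR-143 (solid) and miR-145 (dashed); with the miR-450a vector 17 of 21 mesenchymal rows fell, and with the miR-450b vector 2 of them did, or none under median-of-ratios scaling.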

How the data were processed

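Per the labels' protocols, small RNA libraries were made from TRIzol RNA and sequenced from 1 end on an Illumina HiSeq. The authors deposited fractions, the part of a library's miRNA reads that fell to each mature miRNA or precursor, in tables called relative frequencies per the labels. A library's fractions summed to 1. Which aligner and annotation made them is not given in the sources used here; TopHat and Cuffdiff appear in the submitters' processing notes without a role. Read totals are not given and were not worked out from the shares, so no counting interval, detection limit or count test was computed.

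Shares were multiplied by 1000000 (RPM) and 406 mature and 284 precursor rows averaging 10 RPM or more across the libraries were tested. limma 3.58.1 with an intensity trend (R 4.3.3) was fitted to log2(RPM + 10) of all 9 libraries for 3 comparisons, with Benjamini-Hochberg adjustment over all rows of a table and a threshold of 0.05. The code was tested on simulated data. Ratios, sums and arm shares were compared with exact permutation tests. Python 3.11.15, pandas 2.3.3, scipy 1.17.1 and matplotlib 3.10.9 were used otherwise.

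The members and lists were chosen with earlier results of these data known. The rule for named miRNAs took all arms of both hairpins, the 5 rows nearest in pattern to each member, and the 2 most abundant rows and the largest change of each list other than the cell type markers. miR-206, miR-208a, miR-22*, miR-100, miR-199b-5p, miR-29b-2*, miR-34a* and miR-194-2* lie outside it and were picked with their values in view. So were the named blood cell and epithelial markers. The alternatives tried were additions of 1 or 100 RPM, a filter of 100 RPM or none, limma with no trend, median-of-ratios scaling, fits of only the groups compared, a block for the replicate number, and 1 library left out at a time.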

Additional observations from a re-analysis of the deposited data

Results flagged for a closer look

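The SV40 miRNA miR-S1-3p, which no comparison of the series concerns, stood at a mean of 63.8 RPM in the miR-450a vector libraries, against 0.0889 RPM with the empty vector and 0.167 RPM with the miR-450b vector. It drew attention as a viral signal above the control level in the same 3 libraries in which miR-143 and miR-145 were lowest. Its part in those values was not tested.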

How the results depend on the processing

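Of 204 recomputed log2 changes of the members and their precursors (12 results, 17 alternatives each), 202 kept their direction and their side of the threshold. The other 2 were miR-145 and mir-145 between the vectors with 100 RPM added (-0.43 and -0.46; limma adjusted p = 0.209 and 0.142), where the addition exceeds both groups. With 1 library left out, miR-143 ranged from -6.40 to -6.06 with the miR-450a vector, -2.36 to -1.97 with the miR-450b vector and -4.26 to -3.90 between them, and miR-145 from -5.16 to -4.38, -3.39 to -2.61 and -1.94 to -1.62. Ratios of group means with 1 library left out, an alternative chosen after seeing the data, moved by over 1.5 times for miR-145 without empty vector replicate 1 (96.3 to 60.9 and 11.5 to 7.24 times lower). Among the starred arms between the vectors, miR-143* lost its call with 100 RPM added (-0.10, limma adjusted p = 0.273) and with no filter (-0.77, limma adjusted p = 0.0546), and miR-145* gained one with 1 RPM added (-1.39, limma adjusted p = 0.00197). Mature rows called moved from 225 to 341 with no filter and to 137 at a mean of at least 100 RPM with the miR-450a vector, from 59 to 38 at that filter with the miR-450b vector and from 245 to 140 between the vectors (precursors from 190 to 125), as fewer or more rows were tested. Leaving out 1 library gave 191 to 226, 47 to 70 and 203 to 265 mature rows. The log2 ratio of miR-145 to miR-143 moved with 10 RPM added to both, to 1.40 between the miR-450a and empty vectors and 2.32 between the miR-450a and miR-450b vectors, since the addition compresses miR-145 more. The summed level differed between the vectors by -704 RPM as deposited and by -876 RPM under median-of-ratios scaling. Of the 714 recomputed changes of the other 21 rows named by the rule, 692 kept direction and side, 6 lost a call, 8 gained one and 8 reversed. The reversals were all of uncalled changes. miR-214-3p with the miR-450b vector was 0.19 under median-of-ratios scaling and -0.26 to 0.12 with 1 library left out, miR-378* with the miR-450a vector -0.43 and -0.24 to 0.26, and miR-107 with that vector -0.33 to 0.028. Replicate numbers are shared between groups. Deviations correlated over 0.1 in 4 of 9 same-numbered pairs (-0.507 to 0.641), while 6 of 9 samples were closest to their own number. On the first count the numbers were not taken as pairs, and a block for them was fitted as an alternative. With the replicate block miR-143 and miR-145 kept their calls in the 3 comparisons (limma adjusted p = 0.000853 and 0.000321 with the miR-450b vector), and 230 and 58 mature rows were called with the miR-450a and miR-450b vectors.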
